A study of Mus musculus with 9 samples.

Results

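The cytosolic ribosomal protein genes are the 45 genes, of 12393 that a probe set measures alone, whose array annotation gives a single symbol of the Rpl or Rps series or Rplp0, Rplp2 or Rpsa. Of these, 24 belong to the large subunit and 21 to the small subunit. Each is measured by the probe set of its name with the highest mean over the arrays, taken from 96 such probe sets. The chosen probe set was the sole one for 23 genes, and the other 51 probe sets, of 22 genes, were set beside it. RefSeq lists 44 of the 45 as protein-coding and Rps4l as a transcribed pseudogene. A further 27 ribosomal protein genes, among them Rpl3, Rpl5 and Rplp1, are measured by probe sets that name several genes, mostly with processed pseudogenes, and these are described apart.

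Total RNA of mouse mammary cells in culture was hybridized to MOE430A Gene Chips, an Affymetrix array, with 3 arrays for each of 3 groups. Tumorspheres are non-adherent spheres grown from independent mammary tumors of Her2/Neu mice, which carry the ERBB2 oncogene as a transgene. Its promoter and the age of the tumor-bearing mice are not given in the sources used here, and FVB/N mice served the study as syngeneic hosts for these tumor cells. Mammospheres were grown from mammary glands #3 and #4 of virgin female FVB/N mice aged 6 to 8 weeks. Both kinds of sphere were passaged every 7 days in a stem cell medium and harvested between passage 3 and passage 5. The third group consisted of mammospheres whose cells were dispersed, plated on collagen and kept for 7 days in medium with serum, called differentiated cells from here on. Arrays are named by their codes, 1099A, 1100A and 1101A for tumorspheres, 858A, 859A and 860A for mammospheres and 861A, 862A and 863A for differentiated cells. The tumorsphere codes form a run apart from the others, and the labels give no batch or date. Any difference that goes with the codes cannot be told apart from tumorspheres against the normal cells. The label of 858A carries a further R, whose meaning is not given.

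Every ribosome joins a small subunit, which reads the messenger RNA, and a large subunit, which forms the peptide bond and holds the tunnel through which the new chain leaves. Their proteins are needed in nearly equal amounts, and their genes are among the most highly transcribed of any dividing cell. Many of their mRNAs begin with a run of pyrimidines, the TOP motif, through which growth signals via mTOR set how much of the mRNA is translated, a layer that an RNA array does not see. Several are known outside the ribosome: Rpl11 and Rpl5 bind Mdm2, Rpl13a silences mRNAs of inflammation, and Rpsa is also a laminin receptor.

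The label of the cells was set against marker genes. Summed over 10 markers of mammary epithelium, normalized intensity was 3922 to 6043 in tumorspheres, 562.1 to 656.3 in mammospheres and 576.1 to 653.7 in differentiated cells. Krt18, a keratin of luminal cells, had a mean log2 intensity of 10.20 in tumorspheres, 5.93 in mammospheres and 5.49 in differentiated cells. Summed over 6 fibroblast markers the range was 26066 to 30916, 30036 to 32327 and 33434 to 34708 in the same order, 8 macrophage and blood markers summed to 1324 to 2202, 648.3 to 715.4 and 749.8 to 1161, and 5 endothelial markers to 260.1 to 322.1, 326.0 to 375.7 and 337.3 to 383.8. Of the epithelial markers 5 rose in tumorspheres against mammospheres, as did 5 of the 8 macrophage and blood markers, while 3 of the 5 endothelial markers and 1 fibroblast marker fell (limma). In differentiated cells against mammospheres, 2 epithelial, 4 macrophage and blood and 3 fibroblast markers rose, 1 macrophage and blood and 2 fibroblast markers fell, and all 5 endothelial markers missed the threshold with 1 at an unadjusted p under 0.05. In tumorspheres against differentiated cells, 6 epithelial, 3 macrophage and blood and 2 fibroblast markers rose, and 1 epithelial, 2 endothelial and 4 fibroblast markers fell. The part of this cell makeup in the ribosomal protein results was not tested, and in bulk RNA fewer cells of a type and less RNA per cell cannot be told apart. The log2 ratio of the 3-prime to the 5-prime control probe set ran from -0.28 to -0.13 for Gapdh and from 0.23 to 0.57 for beta-actin.

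The range of each ribosomal protein gene was taken across the 9 arrays, with no range over all probe sets to set beside it. Log2 intensity here is log2 of the deposited intensity plus 8.67, quantile normalized over the 9 arrays. Between its highest and its lowest array a gene moved by a median of 0.356 on the log2 scale, and 36 of the 45 genes stayed within 0.5. The SD between the 3 arrays of a group had a median over the genes of 0.0881 in tumorspheres, 0.0522 in mammospheres and 0.0649 in differentiated cells. Over all probe sets this median was 0.09365, 0.06558 and 0.0879 in the same order. Under quantile normalization the mean was highest in differentiated cells for 26 genes, in tumorspheres for 10 and in mammospheres for 9. These counts were not taken over all probe sets or under other scalings. An adjusted p under 0.05 from limma, corrected over 22626 probe sets, was reached by 15 genes in at least 1 comparison, and 30 genes reached it in none. The like share of all probe sets was not counted, and the shares for each comparison are given below.

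**Figure D1:**
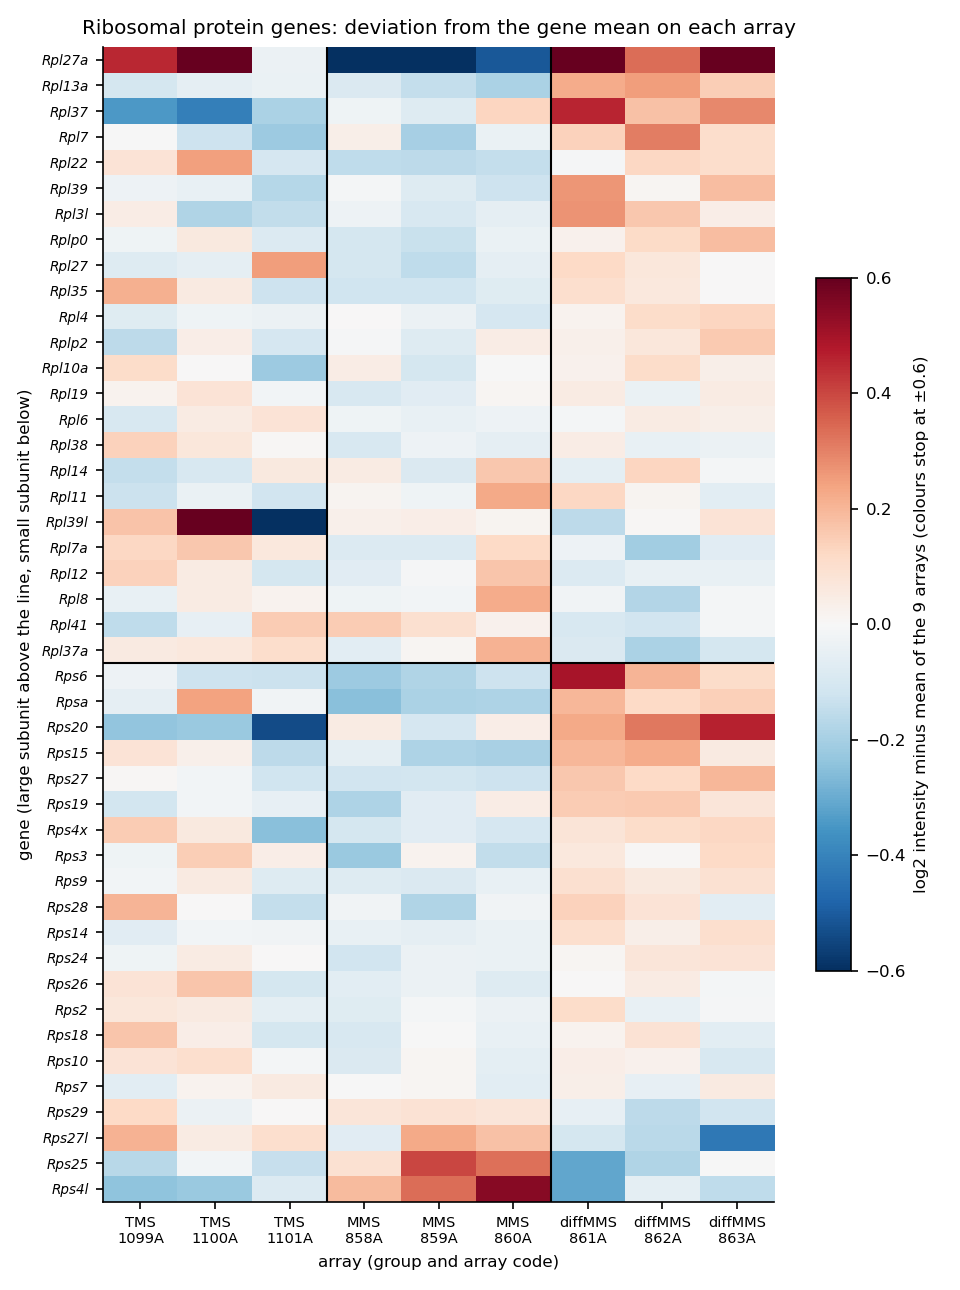
Colour gives the log2 intensity of each ribosomal protein gene (rows, large subunit above the line and small subunit below) on each of the 9 arrays (columns, by group and array code), minus the gene's mean over the arrays. Most rows stay pale, Rpl27a is lowest on the 3 mammosphere arrays, Rps4l is highest on them, and Rpl39l differs between the tumorsphere arrays themselves.

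When mammospheres were induced to differentiate, 11 of the 45 genes rose and 4 fell, where 16.1% of all probe sets rose and 17% fell. That is 24.4% higher and 8.89% lower, 33.3% in all beside 33.1% of all probe sets, so that the share of genes called lay at the background. The median log2 fold change was 0.12, against 0.03 over all probe sets, and 33 of the 45 values were above 0. Rpl27a, Rps6, Rpsa, Rpl13a, Rps20, Rps15, Rpl37, Rps27, Rpl7, Rpl3l and Rplp0 made up the rises, and Rps4l, Rps25, Rps27l and Rps29 the falls. In the large subunit 6 of 24 genes rose and the others missed the threshold (9 of 24 at an unadjusted p under 0.05), and in the small subunit 5 of 21 rose and 4 fell. The count of rises was 6 without mammosphere array 859A, 7 without 861A and 7 without 863A, and the count of falls was 2 without 859A, 860A or 863A in turn.

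The direction of the group as a whole in this comparison rested on how the arrays were scaled. With the intensities as deposited 5 genes rose and 7 fell with a median of 0.03, after centring each array on its median it was 5 and 7 with a median of -0.01, and with cyclic loess 27 and 3 with a median of 0.24. The share of positive values was 26, 19 and 36 of 45 in these settings. Of the 45 genes, 34 have a probe set among the brightest 5% on the array, where the scalings part: the median of all probe sets in that range was -0.04 under quantile normalization, -0.24 as deposited, -0.29 after centring and -0.01 under loess. Among those 34 genes 6 rose and 2 fell, 23.5% in all, beside 56.6% of the 1132 probe sets of that brightness. Over the 30 genes not called, the 95% interval had a median half-width of 0.171.

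**Figure D2:**
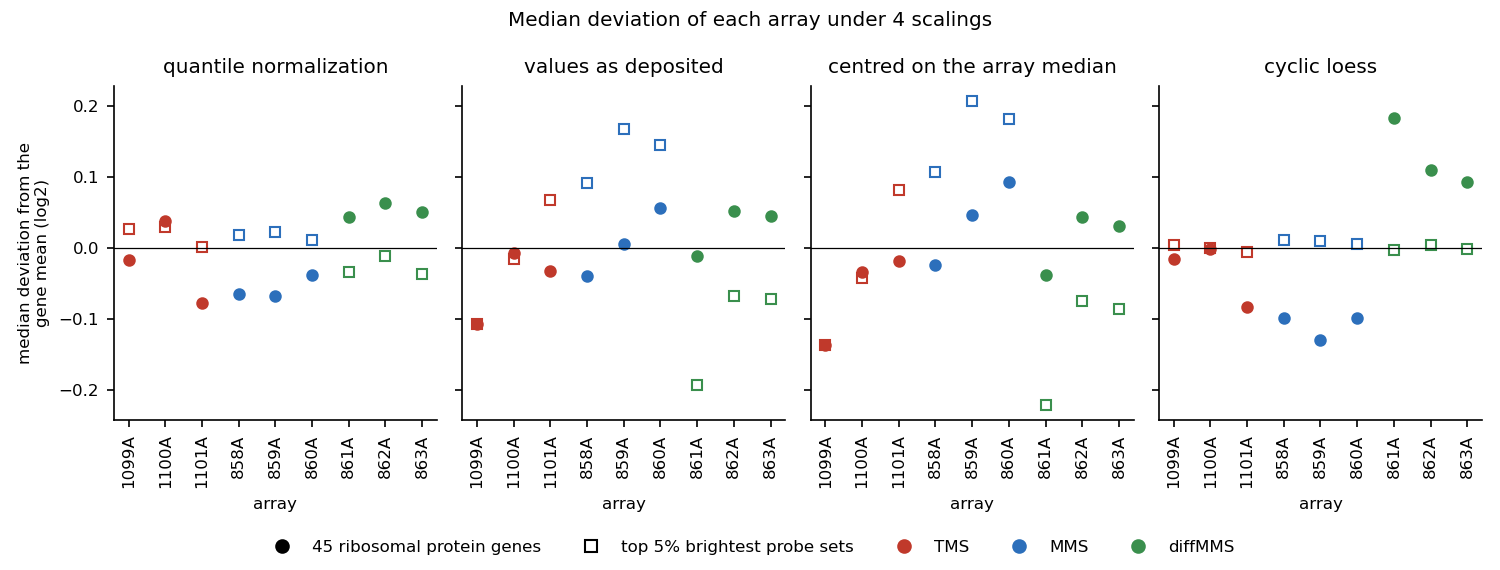
For each array (horizontal axis) the filled dot is the median, over the 45 ribosomal protein genes, of the log2 deviation from each gene's mean, and the open square is the same over the brightest 5% of probe sets. The 4 panels are the 4 scalings, and the dots of the differentiated cells lie above those of all mammosphere arrays under quantile normalization and loess, and overlap with them in the other panels.

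Tumorspheres differed from mammospheres in fewer of these genes. Of the 45, Rpl27a rose and 4 fell (Rps4l, Rps25, Rps20 and Rpl37), where 6.5% of all probe sets rose and 7.78% fell. The share called was 11.1%, beside 14.3% of all probe sets. The median log2 fold change was 0.05, with 28 values above 0, and 39 genes stayed within 0.25 of no change on the log2 scale, which is 1.19-fold, or 86.7% of the genes beside 80.6% of all probe sets. The median turned to -0.04 with the intensities as deposited and to -0.08 after centring, and was 0.09 with loess. The count of rises was 2 without tumorsphere array 1099A and 4 without 1101A, and the count of falls was 2 without 1099A, 2 without 858A, 1 without 859A and 1 without 860A. Among the 40 genes not called, the 95% intervals lay within 0.5 either way for 39, Rpl39l being the exception.

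Between tumorspheres and differentiated cells, Rps27l was higher in tumorspheres and 6 genes were lower (Rps20, Rpl37, Rps6, Rpl7, Rpl13a and Rpl3l), where 12.2% of all probe sets were higher and 11.4% lower. The share called was 15.6%, beside 23.7% of all probe sets, and the median log2 fold change was -0.03 with 16 of 45 values above 0. As deposited, after centring and with loess the median was -0.07, -0.07 and -0.14, and 10 genes were lower with loess. Without tumorsphere array 1100A 3 genes were lower. The call of a rise was lost without 1099A or 863A, while 2 genes rose without 1101A and 3 without 860A. Mammospheres serve in 2 of the 3 comparisons and each other group likewise, so that the comparisons share arrays and are not independent of each other.

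**Figure D3:**
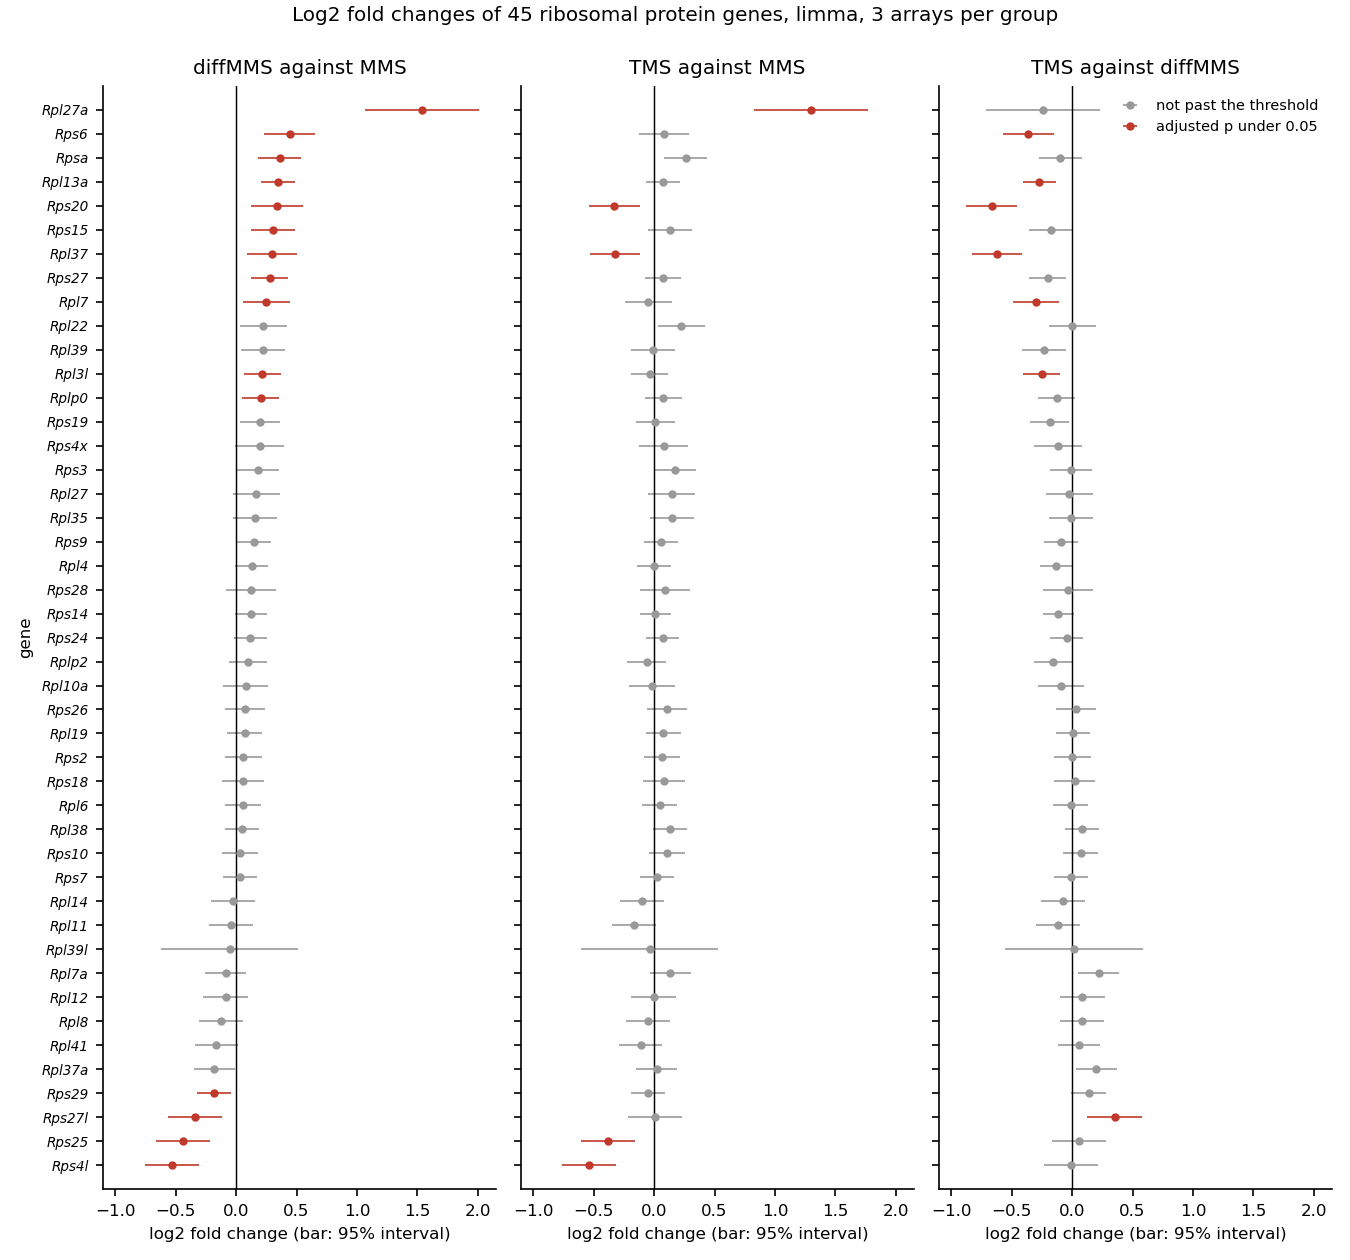
Each row is a ribosomal protein gene, each dot its log2 fold change in 1 comparison and each bar the 95% interval from limma with 3 arrays per group; red marks an adjusted p under 0.05. Most intervals cross 0 or lie near it, and Rpl27a at 1.54 and 1.30 against mammospheres stands apart from all others.

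The start of the gene is shown for the 6 genes that led the rises and falls and are in RefSeq's promoter table (GRCm38.p6), because a run of pyrimidines there is the hallmark of the family. Each sequence runs 5′ to 3′ from 10 bases before the annotated start through its first 20 transcribed bases, and capitals mark a C with the pyrimidines that follow it where such a run of C and at least 4 more pyrimidines begins within 5 bases of the start.

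Rpl27a (chr7:109519185-109519214, plus strand): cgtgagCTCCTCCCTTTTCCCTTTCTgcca
Rpl37 (chr15:5116603-5116632, plus strand): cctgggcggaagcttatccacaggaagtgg
Rps6 (chr4:86857348-86857377, minus strand): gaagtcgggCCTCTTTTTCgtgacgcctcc
Rps25 (chr9:44407704-44407733, plus strand): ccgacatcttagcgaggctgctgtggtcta
Rpsa (chr9:120127756-120127785, plus strand): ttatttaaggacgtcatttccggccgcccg
Rps27l (chr9:66946076-66946105, plus strand): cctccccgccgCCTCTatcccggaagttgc

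Rpl27a has the longest run of the 6 with 20 bases, Rps6 has 10 and Rps27l has 5, and the other 3 have no such run in this window. Among the 39 of the 45 genes that the table holds, 19 had a run at 1 start or more (48.7%), as did 3767 of 17492 protein-coding genes (21.5%) and 17 of 69 mitochondrial ribosomal protein genes (24.6%). Counted over promoters, the shares were 42.6% of 47 and 18.3% of all 32851. With differentiation the 19 genes with a run had a median log2 fold change of 0.07 with 4 higher and 1 lower, and the 20 without one 0.15 with 5 higher and 1 lower. In tumorspheres against mammospheres the medians were 0.07 and 0.02, with 1 higher among the former and 2 lower among the latter. Of all probe sets 16.1% were higher and 17% lower with differentiation, and 6.5% and 7.78% in tumorspheres against mammospheres. The medians and counts by run were taken under quantile normalization alone. Of the genes called, Rps20, Rps29, Rpl7 and Rps4l are not in the table.

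Rpl27a, a protein of the large subunit, had the widest range, 2.20 on the log2 scale. Its log2 intensities were 9.20, 9.39 and 8.72 in tumorspheres, 7.85, 7.33 and 8.24 in mammospheres and 9.52, 9.09 and 9.42 in differentiated cells. All mammosphere arrays lay below all others, while tumorspheres and differentiated cells overlapped. The log2 fold change was 1.30 in tumorspheres (standard error 0.217, limma adjusted p = 0.00216) and 1.54 in differentiated cells (adjusted p = 0.000222), or 2.46-fold and 2.91-fold. The mammosphere arrays also differed from each other with an SD of 0.459, the largest among these genes in that group. A second probe set for Rpl27a, much dimmer, gave 0.12 (adjusted p = 0.379) and 0.28 (adjusted p = 0.0175). A bright probe set that names Rpl27a among 5 genes gave -0.03 (adjusted p = 0.805) and 0.19 (adjusted p = 0.0435), so that the large values belong to a single probe set.

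Rpl13a, a large subunit protein that also acts in the silencing of inflammatory mRNAs, rose with differentiation. Its log2 intensities were 11.89, 11.95 and 11.96 in tumorspheres, 11.91, 11.86 and 11.81 in mammospheres and 12.22, 12.25 and 12.15 in differentiated cells. The 3 differentiated arrays were the highest of the 9, and the spheres overlapped. The log2 fold change against mammospheres was 0.35 (standard error 0.0636, limma adjusted p = 0.00144), and that of tumorspheres against differentiated cells was -0.27 (adjusted p = 0.00834). Its 3 other probe sets gave 0.29, 0.75 and 0.72 against mammospheres, each past the threshold, and the call held under every alternative tried. The difference from tumorspheres was lost when the second probe set stood in for the first (-0.14).

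Rpl37, a small zinc-binding protein of the large subunit, followed the order tumorspheres, mammospheres, differentiated cells. Its log2 intensities were 8.58, 8.52 and 8.74, then 8.90, 8.85 and 9.06, then 9.38, 9.11 and 9.22. No pair of groups overlapped. Rpl37 fell by 0.32 in tumorspheres against mammospheres (limma adjusted p = 0.0396) and by 0.62 against differentiated cells (standard error 0.0942, adjusted p = 0.000458), and differentiated cells were 0.30 above mammospheres (adjusted p = 0.0293). The difference from differentiated cells held under every alternative that could be run, at -0.69 to -0.53, and Rpl37 has no second probe set of its own to try. The call against mammospheres was lost without tumorsphere array 1099A (-0.31) or 1100A (-0.28), without 858A (-0.34), 859A (-0.36) or 860A (-0.26), and without 863A (-0.32). The rise with differentiation was lost without 858A (0.28), 859A (0.26), 861A (0.22) or 863A (0.31), as deposited (0.09) and after centring (0.04). Of 3 probe sets that name Rpl37 with another gene, 1 fell in tumorspheres against mammospheres (-0.41, adjusted p = 0.0462) and 1 rose (0.27, adjusted p = 0.0486).

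Rps20, a small subunit protein, went through the same order. It was the other gene without overlap between any pair of groups, a count not taken over all probe sets. Its log2 intensities were 10.59, 10.61 and 10.30 in tumorspheres, 10.88, 10.73 and 10.87 in mammospheres and 11.06, 11.15 and 11.29 in differentiated cells. Rps20 fell by 0.67 in tumorspheres against differentiated cells (standard error 0.0970, limma adjusted p = 0.000348) and by 0.33 against mammospheres (adjusted p = 0.0422), and rose by 0.34 with differentiation (adjusted p = 0.0193). Its second bright probe set gave -0.74, -0.32 and 0.43, all past the threshold. The other 2, far dimmer, gave -0.01, -0.14 and -0.13, and -0.03, -0.05 and -0.01, none of them past it. The call against mammospheres was lost without tumorsphere array 1101A (-0.23), without 858A (-0.30), 859A (-0.38) or 860A (-0.31) and without 862A (-0.33). The rise with differentiation was lost without 859A (0.29) or 863A (0.27), as deposited (0.14) and after centring (0.10).

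Rps6, the small subunit protein that the S6 kinases phosphorylate downstream of mTOR, and Rpsa, which sits where the mRNA leaves the small subunit, also rose with differentiation. For Rps6 the log2 intensities were 7.15, 7.06 and 7.05 in tumorspheres, 6.96, 7.00 and 7.05 in mammospheres and 7.67, 7.38 and 7.29 in differentiated cells, the last all above the rest (log2 fold change 0.44, standard error 0.0956, limma adjusted p = 0.00399). Against tumorspheres the difference was -0.36 (adjusted p = 0.0162), which missed the threshold without 1100A (-0.35). Both calls rest on 1 probe set: the second one that names Rps6 alone, dimmer still, gave -0.01 (adjusted p = 0.89) and 0.01 (adjusted p = 0.898) in these comparisons. The brightest of the 9 that name it with another gene, at a mean log2 intensity of 12.68, gave -0.05 with differentiation (adjusted p = 0.587). Of the remaining shared probe sets of Rps6, 1 rose with differentiation (0.23) and 4 were lower in tumorspheres than in differentiated cells (-0.50 to -0.19). For Rpsa the values were 11.41, 11.70 and 11.44, then 11.22, 11.28 and 11.28, then 11.66, 11.58 and 11.61. The mammosphere arrays lay below all others, with 0.36 in differentiated cells (adjusted p = 0.00537) and 0.26 in tumorspheres (adjusted p = 0.0524). The value for tumorspheres passed the threshold in 6 of 22 alternatives. These were without 1099A (0.32) or 1101A (0.30), with loess (0.28), with array weights (0.36), with robust moderation and with brighter probe sets alone. The call for differentiated cells was lost as deposited (0.24), after centring (0.19) and with the second, dim probe set of Rpsa (0.09, adjusted p = 0.429).

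Of the other genes that rose with differentiation, Rps27, a zinc-finger protein of the small subunit, was the steadiest. Its log2 intensities were 7.19, 7.19 and 7.18 in mammospheres and 7.47, 7.42 and 7.50 in differentiated cells, with 7.31, 7.29 and 7.18 in tumorspheres. The log2 fold change of 0.28 (standard error 0.0688, limma adjusted p = 0.00911) held under every alternative that could be run, and Rps27 has no second probe set of its own to try. A brighter probe set that names Rps27 with another gene gave 0.62 (adjusted p = 0.000097). Rps15 rose by 0.30 (adjusted p = 0.0152), a call lost without 859A (0.28), 860A (0.28), 861A (0.28) or 862A (0.27), as deposited (0.16) and after centring (0.11). Rpl7 stood at 0.25 (adjusted p = 0.0469) and was lost in 10 of 22 alternatives, among them the arrays 1100A (0.25), 859A (0.18), 860A (0.27), 861A (0.27), 862A (0.19) and 863A (0.29) and the deposited (0.08) and centred (0.04) scalings. Its difference between tumorspheres and differentiated cells, -0.30 (adjusted p = 0.0285), was lost without 1100A (-0.30), 1101A (-0.24) or 862A (-0.24), as deposited (-0.27) and after centring (-0.26).

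**Figure D4:**
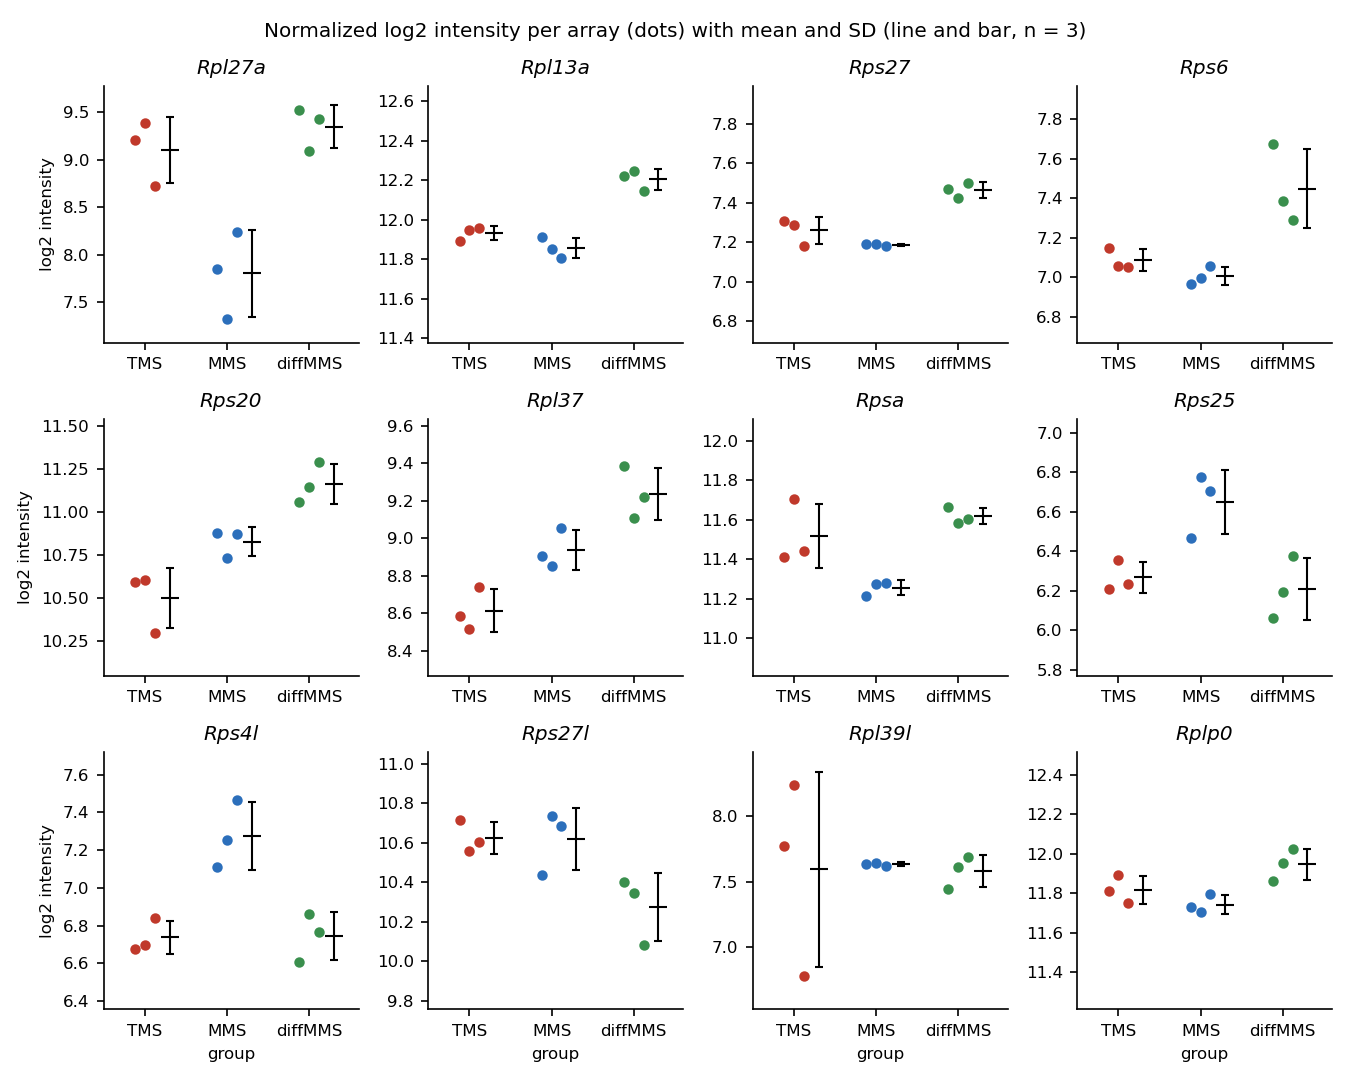
Each panel is a ribosomal protein gene, with the log2 intensity of every array as a dot by group (TMS tumorspheres, MMS mammospheres, diffMMS differentiated cells) and the group mean with its SD beside the dots (n = 3). The vertical axes differ between panels; Rps20 and Rpl37 rise from TMS through MMS to diffMMS, Rps25 and Rps4l are highest in MMS, and the TMS arrays of Rpl39l run from 6.78 to 8.23.

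Rps25 and Rps4l were highest in mammospheres. Rps25, a small subunit protein used in initiation at viral internal entry sites, had log2 intensities of 6.21, 6.36 and 6.24 in tumorspheres, 6.47, 6.77 and 6.70 in mammospheres and 6.06, 6.19 and 6.37 in differentiated cells. It fell by 0.44 with differentiation (standard error 0.101, limma adjusted p = 0.00604), which held under every alternative that could be run, and by 0.38 in tumorspheres (adjusted p = 0.026), which was lost without 1099A (-0.35), 859A (-0.32) or 860A (-0.35). A much brighter probe set that names Rps25 among 3 genes gave 0.07 and 0.14 for the same comparisons, neither past the threshold. Rps4l, the transcribed pseudogene related to Rps4x, had 6.68, 6.70 and 6.84 in tumorspheres, 7.11, 7.25 and 7.47 in mammospheres and 6.61, 6.86 and 6.77 in differentiated cells. It fell by 0.54 in tumorspheres (adjusted p = 0.00435) and by 0.53 with differentiation (adjusted p = 0.00195), and both calls held under every alternative that could be run. Neither Rps25 nor Rps4l has a second probe set of its own to try. Rps25 also fell out of the alternative that kept brighter probe sets alone.

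Relatives within the family were compared array by array. Rps27l, which differs from Rps27 by a few residues and is induced by p53, had log2 intensities of 10.72, 10.56 and 10.61 in tumorspheres, 10.44, 10.74 and 10.68 in mammospheres and 10.40, 10.35 and 10.08 in differentiated cells. The differentiated arrays were the lowest, with -0.34 against mammospheres (limma adjusted p = 0.0234) and 0.35 for tumorspheres against them (adjusted p = 0.0275). The first call was lost without 859A (-0.29), 860A (-0.31) or 863A (-0.25), and the second without 1099A (0.31) or 863A (0.25), with its second probe set (0.19, adjusted p = 0.135) and without _x_at and _s_at probe sets (0.27, adjusted p = 0.134). The difference Rps27l minus Rps27 shifted by -0.62 with differentiation, and Rps4l minus Rps4x by -0.73 with differentiation and by -0.62 in tumorspheres, each without overlap between the arrays of the groups. Rpl39l minus Rpl39 shifted by -0.28 with differentiation. The exact permutation p was 0.1 for each of these, the smallest that 3 arrays against 3 allow, and 0.18 after adjustment over 9 tests, so that none could pass the threshold. Rpl39l, the testis-enriched relative of Rpl39, had 7.77, 8.23 and 6.78 in tumorspheres beside 7.63, 7.64 and 7.62 in mammospheres and 7.45, 7.61 and 7.68 in differentiated cells, so that the tumorsphere arrays lay on both sides of all others. Without 1101A it was 0.42 higher in tumorspheres than in differentiated cells (adjusted p = 0.0267). Rpl3l, the muscle relative of Rpl3, was dim throughout, with group means of 4.84, 4.87 and 5.09, and rose with differentiation by 0.22 (adjusted p = 0.0341), lost without 858A (0.23), 859A (0.20), 860A (0.22), 861A (0.16) or 862A (0.21). In tumorspheres against differentiated cells Rpl3l stood at -0.25 (adjusted p = 0.0222), lost without 1100A (-0.21), 1101A (-0.22), 861A (-0.19) or 862A (-0.25).

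Of 3 measured proteins in the stalk of the large subunit, which recruits the translation factors, Rplp0 alone was called under quantile normalization. Rplp0, its base, had log2 intensities of 11.81, 11.89 and 11.75 in tumorspheres, 11.73, 11.70 and 11.80 in mammospheres and 11.86, 11.95 and 12.02 in differentiated cells, a rise of 0.20 with differentiation (limma adjusted p = 0.0424). That call was lost without 858A (0.20), 859A (0.19), 860A (0.23), 862A (0.20) or 863A (0.16), and under the scalings as deposited (0.19) and after centring (0.14). Rplp0 in tumorspheres against differentiated cells (-0.29), and Rplp2 with differentiation (0.24, adjusted p = 0.0263) and in tumorspheres against differentiated cells (-0.24), passed the threshold with loess. Under quantile normalization Rplp2 stood at 0.10 (adjusted p = 0.33) and Rpl12 at -0.09 (adjusted p = 0.468) with differentiation, and at -0.06 and -0.00 in tumorspheres against mammospheres. Rpl11, which carries the smallest ribosomal RNA into the large subunit together with Rpl5, had -0.17 in tumorspheres (95% interval -0.35 to 0.02, adjusted p = 0.227) and -0.05 with differentiation. As deposited these were -0.32 and -0.28, both past the threshold. The bright shared probe set of Rpl5 gave 0.01 and 0.03. The 4 measured proteins of the exit tunnel, Rpl4, Rpl19, Rpl35 and Rpl39, ranged from 0.07 to 0.22 with differentiation and from -0.01 to 0.15 in tumorspheres against mammospheres, none past the threshold (limma, with 1 and 0 of 4 at an unadjusted p under 0.05). With cyclic loess 3 of the 4 rose with differentiation, with a median of 0.25.

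Of the 45 genes, 11 are among those mutated in Diamond-Blackfan anemia, an inherited failure of red cell production. With differentiation Rps27 rose and Rps29, like Rps27 a zinc-binding protein, fell. That is 9.09% of the 11 genes either way, beside 16.1% and 17% of all probe sets. Rps29 had log2 intensities of 12.64, 12.48 and 12.52 in tumorspheres, 12.59, 12.61 and 12.59 in mammospheres and 12.47, 12.36 and 12.40 in differentiated cells, a fall of 0.18 (limma adjusted p = 0.0465). That call was lost without tumorsphere array 1100A and without each of the mammosphere and differentiated arrays in turn (-0.21 to -0.16), with its second probe set the value was -0.12 (adjusted p = 0.165), and with cyclic loess it was 0.02. Rps19, the gene most often mutated in the disease, had 10.26, 10.35 and 10.32, then 10.18, 10.30 and 10.41, then 10.52, 10.52 and 10.44. The differentiated arrays were the highest, at 0.20 above mammospheres (adjusted p = 0.0619), while tumorspheres and mammospheres overlapped and differed by 0.01 (adjusted p = 0.949). The value with differentiation was -0.05 as deposited and -0.09 after centring, and it passed the threshold in 4 alternatives, among them the fit without 860A (0.25, adjusted p = 0.0385). The median of the 11 genes was 0.12 with differentiation and 0.07 in tumorspheres against mammospheres, where they all missed the threshold (limma, with 0 of 11 at an unadjusted p under 0.05). Of all probe sets 14.3% were called in that comparison. With differentiation the median was 0.03 as deposited and -0.02 after centring, each with 1 rise and 2 falls, and 0.24 with loess, with 6 rises. Of all probe sets 18.7% rose and 18.3% fell as deposited, 12.8% and 20.7% after centring, and 14.1% and 17.9% with loess. In tumorspheres against mammospheres the median of the 11 genes was -0.02 as deposited and -0.07 after centring, each with 1 fall. Of all probe sets 8.5% and 10.5% fell in these settings.

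Other probe sets of the same genes gave a mixed account. Of the 51, 42 had the sign of the chosen probe set with differentiation, 33 in tumorspheres against mammospheres and 34 in tumorspheres against differentiated cells. For genes called, 9 of 16, 1 of 4 and 5 of 11 of their other probe sets were called the same way, and none were called the opposite way. In genes not called, a dim probe set of Rps24 fell by 0.54 with differentiation (limma adjusted p = 0.000305) and by 0.63 in tumorspheres (adjusted p = 0.000331), where the chosen, bright one gave 0.12 and 0.07. A dim probe set of Rps9 fell by 0.30 and by 0.29 in the same comparisons, beside 0.15 and 0.06 for the chosen one. In tumorspheres against differentiated cells, further probe sets of Rpl22 (-0.47), Rps18 (-0.33) and Rps10 (-0.23) were lower, beside 0.00, 0.02 and 0.07 for the chosen ones. Probe sets that name a member with another gene cover 14 of the 45. With differentiation 6 of those 14 genes were called and the brightest shared probe set was called the same way for 3, Rpl13a, Rps27 and Rpl27a, and not called for Rps6, Rpl37 and Rps25. In tumorspheres against mammospheres 3 were called (Rpl27a, Rpl37 and Rps25), and the brightest shared probe set was not called for any of them. In tumorspheres against differentiated cells 3 were called (Rps6, Rpl13a and Rpl37). The brightest shared probe set was called the same way for 1 of these and not called for 2. Probe sets read different stretches and related copies of a gene, and which of them follows the gene was not tested.

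The 27 ribosomal protein genes measured through shared probe sets alone were counted apart. With differentiation 6 were higher (Rps21, Rps16, Rpl28, Rpl29, Rpl26 and Rplp1, at 0.22 to 0.30) and Rpl10 was lower (-0.19, limma adjusted p = 0.0402), with a median of 0.09. That is 22.2% higher and 3.7% lower, beside 16.1% and 17% of all probe sets. The counts for these 27 genes were taken under quantile normalization alone. Rpl13 was the sole gene called in tumorspheres against mammospheres, where it was higher (0.28, adjusted p = 0.0377), and the 27 had a median of 0.00. The share called was 3.7%, beside 14.3% of all probe sets. In tumorspheres against differentiated cells Rps21 (-0.38), Rps15a (-0.34) and Rplp1 (-0.21) were lower, or 11.1% beside 11.4% of all probe sets. Rplp1, partner of Rplp2 in the stalk, stood at 0.22 with differentiation (adjusted p = 0.0356), and its difference from Rplp2 was not tested. Rpl3, a core protein of the large subunit, stood at 0.02 in tumorspheres and at -0.09 with differentiation, neither past the threshold.

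The machinery that builds ribosomes was set beside their proteins. Of 45 ribosome biogenesis factors, 16 fell with differentiation and 4 rose, with a median log2 fold change of -0.20, while the ribosomal proteins had 4 falls and 11 rises, or 7 falls and 5 rises both as deposited and after centring. Of the biogenesis factors 35.6% fell and 8.89% rose, beside 17% and 16.1% of all probe sets. The falls included Nmd3, the export adaptor of the large subunit (-0.66, limma adjusted p = 0.00102), and Imp3, of the small subunit processome (-0.65, adjusted p = 0.000321), and the rises were led by Rpf2 (1.03, adjusted p = 0.00092), which helps seat the smallest ribosomal RNA. Under the other scalings the factors had 17, 21 and 17 falls and 1, 1 and 4 rises as deposited, centred and with loess. Tumorspheres against mammospheres had 1 rise (Rpf2, 0.71) and 3 falls, led by Nmd3 (-0.50) and Rrs1 (-0.43). That is 2.22% and 6.67%, beside 6.5% and 7.78% of all probe sets. Against differentiated cells 9 were higher in tumorspheres, led by Nhp2 (0.57) and Imp3 (0.50), and Ltv1 was lower (-0.28). That is 20% and 2.22%, beside 12.2% and 11.4% of all probe sets. The call of Ltv1 was lost under each of the other scalings. Of 12 genes of RNA polymerase I and its factors, 3 fell with differentiation and 3 in tumorspheres against mammospheres, in both cases led by the initiation factor Rrn3 (-0.70 and -0.46), and as deposited 1 fell with differentiation. The 3 falls are 25% of the list in each comparison, beside 17% and 7.78% of all probe sets. Tumorspheres against differentiated cells had Taf1d (0.41) and Polr1a (0.37) higher and Taf1a lower (-0.27), the last call lost with loess.

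Mitochondrial ribosomal proteins, which serve the separate ribosome of that organelle, had 15 falls and 2 rises among 74 with differentiation (median -0.10). That is 20.3% lower and 2.7% higher, beside 17% and 16.1% of all probe sets. Mrps6 stood at -1.003 (limma adjusted p = 3.19e-05) and Mrpl18 at -0.88, while Mrpl15 rose by 0.40 and Mrpl46 by 0.24. The falls numbered 23, 32 and 19 under the other 3 scalings, with 1, 0 and 2 rises. Tumorspheres had 5 falls against mammospheres, led by Mrpl18 (-0.49) and Mrpl51 (-0.43), or 6.76% beside 7.78% of all probe sets. Against differentiated cells 9 were higher in tumorspheres, led by Mrps6 (0.89) and Mrpl27 (0.42), and Mrpl15 was lower (-0.43). That is 12.2% higher and 1.35% lower, beside 12.2% and 11.4% of all probe sets. No test set the 2 kinds of ribosomal protein against each other. Beside them, 18 of 19 cell cycle genes fell with differentiation (median -1.12) and 17 fell in tumorspheres against mammospheres (median -0.45). Mki67, a marker of dividing cells, fell by 1.96 with differentiation (adjusted p = 1.24e-08) and Birc5 stood at -1.99, while the median ribosomal protein gene stood at 0.12.

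**Figure D5:**
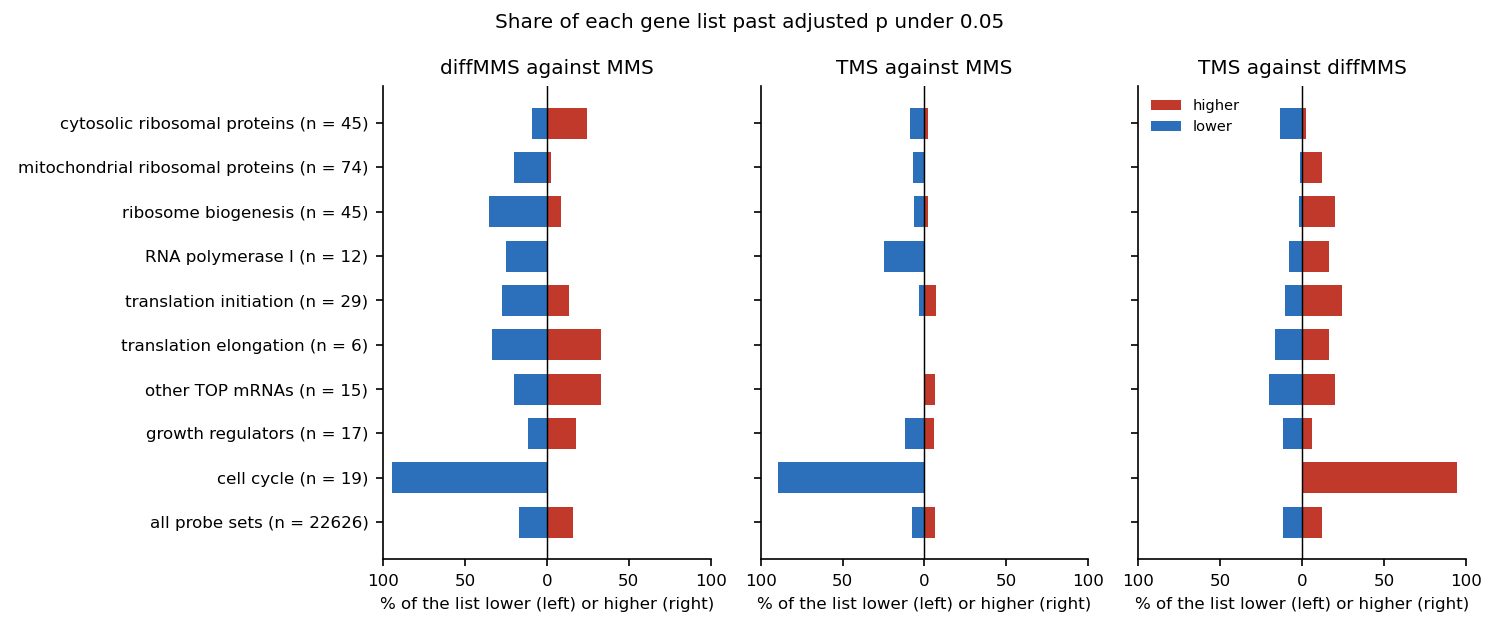
Bars give the percentage of each gene list that was higher (right) or lower (left) at an adjusted p under 0.05 from limma, 1 panel per comparison, with the number of genes beside each list's name. Cell cycle genes fill nearly the whole of their bar in every panel, while the cytosolic ribosomal proteins show short bars on both sides, 24.4% higher and 8.89% lower with differentiation.

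Genes that share the TOP motif or the task of translation moved in both directions. Of 15 other TOP mRNAs, 5 rose and 3 fell with differentiation, or 33.3% and 20%, beside 16.1% and 17% of all probe sets. Gas5, a host of small nucleolar RNAs whose own RNA is known to accumulate when growth is arrested, had log2 intensities of 9.65, 9.72 and 9.56 in tumorspheres, 9.31, 9.40 and 9.33 in mammospheres and 11.48, 11.51 and 11.55 in differentiated cells. The differentiated arrays stood far above all others, a rise of 2.17 (limma adjusted p = 2.04e-09), and Snhg1, a host of the same kind, rose by 0.91. Tpt1 fell by 0.32 and Naca by 0.23. The median of the list was 0.10, but -0.07 as deposited and -0.12 after centring, with 3 rises and 5 falls in each, and with loess 5 genes rose and all falls were lost. Gas5 alone was called in tumorspheres against mammospheres (0.30), or 6.67% of the list beside 6.5% of all probe sets called higher. Against differentiated cells 3 were higher in tumorspheres, Pabpc1 (0.29) and Tpt1 (0.27) among them, and 3 lower, Gas5 (-1.87) and Snhg1 (-0.83) among them. That is 20% either way, beside 12.2% and 11.4% of all probe sets. The 3 higher ones were lost under each of the other scalings, and the call of Gas5 in tumorspheres against mammospheres as deposited and after centring.

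Of 29 translation initiation factors, 4 rose and 8 fell with differentiation, with Eif4a2 at 0.49, Eif3e at 0.41, Eif1ax at -0.69 and the cap-binding protein Eif4e at -0.58. That is 13.8% higher and 27.6% lower, beside 16.1% and 17% of all probe sets. As deposited 1 rose and 11 fell, and after centring 13 fell and the rises were lost. In tumorspheres against mammospheres Eif2b2 (0.28) and Eif3i (0.27) rose and Eif4g2 (-0.32) fell, with a median of 0.02. That is 6.9% higher and 3.45% lower, beside 6.5% and 7.78% of all probe sets. As deposited and after centring both rises were lost, 2 factors fell, and the median was -0.10 and -0.14. Against differentiated cells 7 were higher, led by Eif4a1 (0.54) and Eif1ax (0.47), and 3 lower, among them Eif3e (-0.43) and Eif4a2 (-0.37). That is 24.1% higher and 10.3% lower, beside 12.2% and 11.4% of all probe sets. Of 6 genes listed as elongation factors, Eef1e1 by its name alone, Eef1b2 (0.36) and Eef2 (0.35) rose with differentiation. Eef1e1 (-0.54) and Eif5a (-0.42) fell. That is 33.3% either way, beside 16.1% and 17% of all probe sets. As deposited and after centring 1 gene of this list rose and 2 fell. The list had a median of -0.05, which was 0.10 with loess. Against differentiated cells Eif5a was higher in tumorspheres (0.28) and Eef1b2 lower (-0.44), the latter call lost as deposited and after centring. In tumorspheres against mammospheres no gene of this list passed the threshold (limma, with 0 of 6 at an unadjusted p under 0.05). Among 17 regulators of growth through Myc and mTOR, the Myc antagonist Mxi1 rose with differentiation (0.61) and in tumorspheres (0.44), and Max, the partner of Myc, fell in both (-0.62 and -0.56), as did Rps6ka3 (-0.27 in each). In all 3 rose and 2 fell with differentiation, Mycl (0.36) among the rises, and 1 rose and 2 fell in tumorspheres against mammospheres. With differentiation that is 17.6% higher and 11.8% lower, beside 16.1% and 17% of all probe sets. In tumorspheres it is 5.88% and 11.8%, beside 6.5% and 7.78%. Tsc2 was higher in tumorspheres than in differentiated cells (0.22), and Mycl (-0.30) and Mxd1 (-0.31) were lower. Of 4 ribosomal proteins outside the naming rule, Rpl22l1 (0.40) and Fau (0.23) rose with differentiation, Rpl7l1 fell in tumorspheres against mammospheres (-0.30), and Rpl22l1 was lower in tumorspheres than in differentiated cells (-0.47). Both rises with differentiation were lost as deposited and after centring.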

How the data were processed

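The deposited intensity of each probe set, on a linear scale, was made by the authors, whose methods name GeneSpring; how probe sets were summarised and arrays scaled is not given in the sources used here. Array medians were 84.0 to 88.6, and the arrays carry no read depth, so that their number, 3 per group, limits the precision. Spearman correlations within a group were 0.985 to 0.996. Since quartiles lay as far as 0.164 apart between arrays (log2), more than the 0.1 allowed, log2(intensity + 8.67), the added value being 10% of the median intensity, was quantile normalized over 22690 probe sets, 64 of them controls left out of the tests. Fold changes are on that scale, which understates the change of dim probe sets. limma 3.58.1 (R 4.3.3) fitted 3 group means to 9 arrays with an intensity trend (6 residual degrees of freedom), two-sided, with Benjamini-Hochberg adjustment over 22626 probe sets. The fit was tested on simulated data with changes larger than most of those reported here, so that the simulation does not cover the smaller ones.

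Genes were named from the platform annotation: 20380 probe sets had 1 symbol, 691 several and 1555 none. The genes described and all gene lists were chosen with earlier results of these data known. Named were, per comparison, up to 8 called rises and 8 called falls with no overlap between the arrays of the groups, the stalk, the partners of the smallest ribosomal RNA and the family's paralogs, with Rps6, Rps19, Rpl3 and Rpsa, and up to 2 rises and 2 falls of each other list. Rpl3l, whose groups overlapped in 1 call, entered as a paralog. The exit tunnel genes and the shared probe sets were named after their values were seen. The study's methods describe the arrays of each group as separate cell preparations, the tumorspheres from independent tumors. Whether the other preparations came from different mice is not given in the sources used here. Alternatives covered the scaling, the pseudocount, dim probe sets, the variance model, the choice of probe set and leaving out each array. Alternatives chosen after seeing the data were adding shared probe sets, keeping the brightest genes alone, quantile normalization without controls, and rescaling the gene lists. Figures were drawn with matplotlib 3.10.9 on Python 3.11.15, with tables in pandas 2.3.3.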

Additional observations from a re-analysis of the deposited data

How the results depend on the processing

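The scaling decided most. As deposited, after centring and with cyclic loess, the rises with differentiation numbered 5, 5 and 27 beside 11, with medians of 0.0329, -0.0144 and 0.24, and the falls were 7 as deposited and 7 after centring beside 4. The median in tumorspheres against mammospheres was -0.0398, -0.0849 and 0.089, and loess gave 2 rises there and, against differentiated cells, 10 falls with a median of -0.14. In tumorspheres against mammospheres, brighter probe sets alone and robust moderation each gave 2 rises and array weights 4, while against differentiated cells the first and the last gave 2. Without the _x_at and _s_at probe sets the median with differentiation was 0.0812 and the rise in tumorspheres against differentiated cells was lost (0 rises). With the second probe set of each gene, falls were 2 in tumorspheres and 2 with differentiation, and against differentiated cells the median was -0.14 with 0 rises; the genes tested are fewer by construction. With shared probe sets added, falls in tumorspheres were 2, rises with differentiation 17 and falls against differentiated cells 10. Among the brightest 5% alone, tumorspheres against mammospheres had 0 rises (limma, with 3 of 34 genes at an unadjusted p under 0.05) and 1 fall, differentiation 6 rises and 2 falls, and tumorspheres against differentiated cells 3 falls. Leaving out each array in turn, rises and falls were 1 to 4 and 1 to 4 in tumorspheres against mammospheres (median 0.0269 to 0.0655), 6 to 14 and 2 to 4 with differentiation (0.0829 to 0.125), and 0 to 3 and 3 to 7 in tumorspheres against differentiated cells (-0.0703 to -0.0313). The cause of these shifts was not tested.

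Among 1272 alternative values for 60 named results, 1157 stayed on their side of the threshold, 88 lost the call and 23 gained one. Of those 1157, 46 had the opposite sign, all of them of 19 results that were not called. Another 4 turned the sign of a called value: Rps29 with differentiation under loess (0.022), Rps20 with differentiation without _x_at and _s_at probe sets (-0.13), and Rps6 with its second probe set, at -0.0099 with differentiation and 0.01 in tumorspheres against differentiated cells. Of 27 calls, 7 held in every alternative that could be run: Rpl13a, Rpl27a, Rps25, Rps27 and Rps4l with differentiation, Rps4l in tumorspheres against mammospheres and Rpl37 in tumorspheres against differentiated cells. Rps25, Rps27, Rps4l and Rpl37 have no second probe set of their own, so that alternative could not be run for them. Nor could the one without _x_at and _s_at probe sets for Rpl37, or the one with brighter probe sets alone for Rps25. No paired analysis was possible because the labels give no replicate numbers.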
